A study of Homo sapiens with 4 samples.

Results

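The proteasome genes of A549 cells, a human lung adenocarcinoma line, were compared between control cells and cells deprived of glutamine. Members were the protein-coding genes whose symbol starts with PSMA, PSMB, PSMC, PSMD, PSME, PSMF or PSMG, together with POMP, NFE2L1 and DDI2. The rule found 53 genes among 58560 genes with summed transcripts, and 51 of the 53 passed the filter on low counts, as did 24527 genes in all. The 2 members that did not pass were PSMA8, a core subunit of the testis, and PSMB11, a catalytic subunit of the thymus. Their highest levels in a library were 0.00875 CPM for PSMA8 and 0.070 CPM for PSMB11 (CPM are read counts scaled to the library total).

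The study sequenced poly-A RNA of 2 control and 2 deprived libraries. Control cells received no treatment and were kept in complete medium (DMEM with FBS and antibiotics). Deprived cells were washed in PBS and kept in DMEM with FBS that lacked glutamine, for 24 h in library 1 and 25 h in library 2 by their own labels. Neither a wash of the control cells nor separate cultures for the libraries are stated, so p-values measure only the spread between these libraries, which may be technical.

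The proteasome is the main protease of the cytosol and nucleus and degrades proteins that carry ubiquitin chains. Its barrel, the 20S core, is built of alpha rings that gate the entrance and beta rings that hold the catalytic sites. The 19S particle caps the barrel: its lid removes ubiquitin, and its base, a ring of ATPases with scaffold and receptor subunits, binds and unfolds the substrate. Dedicated chaperones assemble these parts, and the transcription factor NFE2L1 (also called NRF1) drives subunit genes together when proteasome activity is short.

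Library totals ran from 101496318 to 123414592 counts, of which the members held between 0.627% and 0.650% of the counts summed to genes. Epithelial markers were present, with 7573 and 7683 summed CPM in control and 2021 and 1734 in deprived libraries. The labelled cell type is alveolar basal epithelial cells. Among 9 markers of alveolar type II cells, 6 stayed under 1 CPM in every library, and NAPSA and LAMP3 reached at most 2.77 and 3.03 CPM. ABCA3 had 41.2 and 41.3 CPM in control and 27.7 and 28.6 CPM in deprived libraries. The airway basal markers summed to at most 8.68 CPM. Markers of fibroblasts and endothelium summed to at most 3.78 and 0.989 CPM. All libraries are labelled as the same line, so these sums are levels of marker genes and were not used to count cells of a type. Of the 6 epithelial markers 5 were called lower and 0 higher. In bulk libraries a change in every cell and a change in part of the cells cannot be told apart.

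Proteasome genes moved in different directions after deprivation. Of the 51 tested, 23 were called higher and 10 lower, and 18 were not called (edgeR quasi-likelihood test, Benjamini-Hochberg adjusted p under 0.05 over all genes tested). The background was high: 25.2% of all genes tested were called higher and 24.4% lower, 49.6% in either direction. Among protein-coding genes alone the shares were 34.3% higher and 29.8% lower, 64.1% in all, beside 64.7% of the members. Against the 9473 protein-coding genes between 8.18 and 314 CPM, the central range of the members, the shares were 44.4% higher, 29.7% lower and 74.1% in either direction. In either direction, the members' share of calls was near that of other protein-coding genes and below that of genes expressed at their level. The 23 of 51 called higher lay near the share of genes of like expression and above that of all protein-coding genes. The 10 of 51 called lower lay below both shares. The members and the counts by role below were not tested against these shares.

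The median log2 fold change of the members was 0.17, and that of the 9473 genes of like expression was also 0.17. Over all genes tested the median was -0.06. The members' changes were narrow, with an SD across genes of 0.55 beside 1.08 for genes of like expression. In 25 members both deprived libraries lay above both controls, in 14 both lay below, and in 12 the groups overlapped; over all genes tested 36.1% lay above and 40.5% below, 76.5% without overlap.

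**Figure D1:**
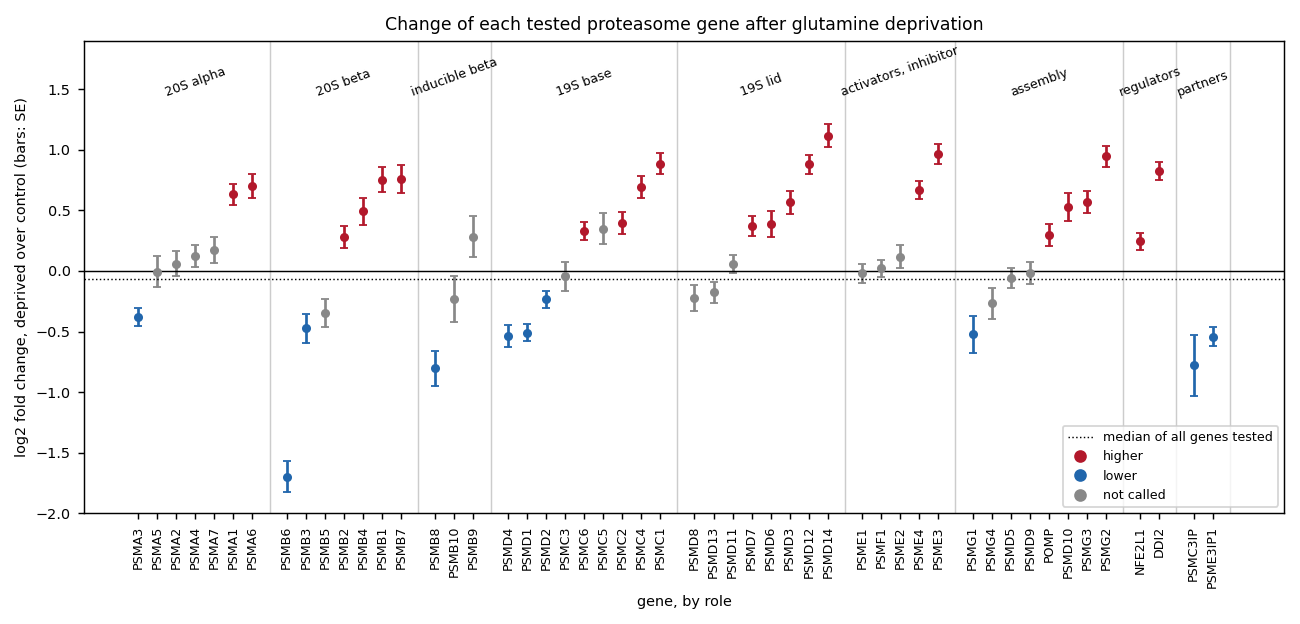
Log2 fold change of deprived over control (y axis, bars are the SE) for each of the 51 tested genes, ordered by role along the x axis; the dotted line is the median of all genes tested. PSMB6 stands lowest at -1.70 and PSMD14 highest at 1.12, and the lid holds 5 genes called higher and none called lower. Among protein-coding genes of like expression 44.4% were called higher and 29.7% lower.

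The counts by direction depended on how the libraries were scaled. The values above use TMM, a scaling that sets the bulk of genes as the reference. With scaling by library size alone the median of all genes tested moved to -0.40, and 13 members were called higher and 23 lower, beside a background of 17.0% higher and 34.9% lower. The median of the members under that scaling was -0.16, which still lay above the median of all genes. Under that scaling 10 of the genes called higher lost their call, namely PSMB2, PSMB4, PSMC2, PSMC6, PSMD3, PSMD6, PSMD7, PSMD10, POMP and NFE2L1. Of these, PSMB2 (-0.06), PSMC6 (-0.0084), POMP and NFE2L1 turned to values below 0.

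**Figure D2:**
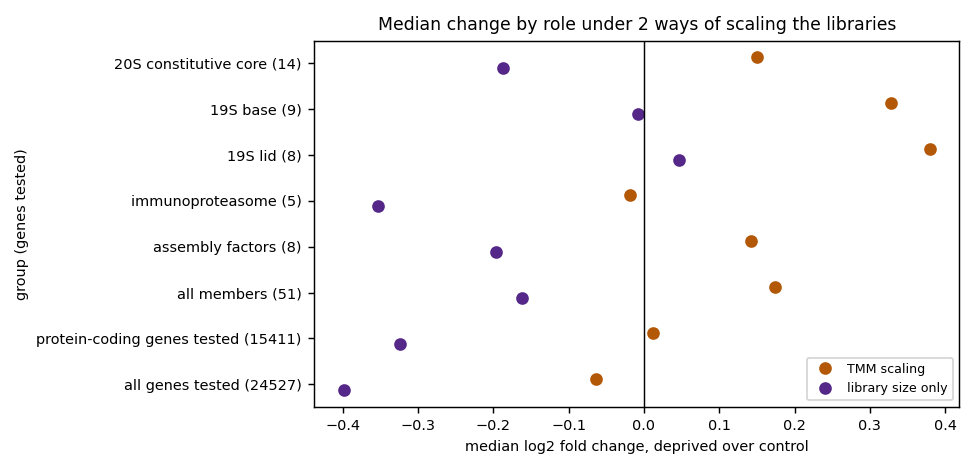
Median log2 fold change (x axis) of each group of genes, with the number tested in parentheses, under TMM scaling and under library size only. All groups shift to lower values with library size only, the members from 0.17 to -0.16 and all genes tested from -0.06 to -0.40.

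The beta ring of the 20S core held the largest fall among the members. Of its 7 genes, 4 were called higher, 2 were called lower and 1 was not called, with a median of 0.28. PSMB6 (ENSG00000142507, GRCh38 chr17:4796144-4798503, plus strand) encodes beta 1, the subunit that cuts after acidic residues. Its level was 63.4 and 76.6 CPM in the control libraries and 23.4 and 19.7 CPM in the deprived ones. Both deprived libraries lay far below both controls. The mean fell from 70.0 ± 9.34 CPM (SD, n = 2) to 21.6 ± 2.64 CPM (SD, n = 2), a log2 fold change of -1.70 ± 0.13 (SE, edgeR adjusted p = 0.000144), or 3.24-fold lower. With library size only the log2 change was -2.03. The fall lay in its main protein-coding transcript, PSMB6-201, which held 6828 and 7886 counts in control and 2305 and 1957 counts in deprived libraries.

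Of the other catalytic subunits of the core, PSMB7 was called higher and PSMB5 was not called. PSMB7, which encodes beta 2 with trypsin-like activity, had 141 and 166 CPM in control and 280 and 240 CPM in deprived libraries. Its groups did not overlap, and it rose by 0.76 ± 0.11 on the log2 scale (edgeR adjusted p = 0.00228). PSMB5, which encodes beta 5 with chymotrypsin-like activity and is the main target of bortezomib, had 167 and 196 CPM in control and 155 and 131 CPM in deprived libraries. Both deprived values lay below both controls, yet its log2 fold change of -0.35 ± 0.12 just missed the threshold (edgeR adjusted p = 0.0501), and it was called lower in 8 of the 13 alternatives, DESeq2, limma-voom and library size only among them, with no change of sign in any.

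The non-catalytic beta subunits were also divided. PSMB1 (beta 6) had 71.7 and 83.3 CPM in control and 139 and 122 CPM in deprived libraries, and rose by 0.75 ± 0.11 on the log2 scale (edgeR adjusted p = 0.00168). PSMB4 (beta 7) had 251 and 286 CPM in control and 406 and 348 CPM in deprived libraries, and rose by 0.49 ± 0.11 (edgeR adjusted p = 0.0115). PSMB2 (beta 4) rose by 0.28 ± 0.09 (edgeR adjusted p = 0.043). In each of these genes the deprived libraries stood above both controls, but the PSMB2 call was lost without control 1, control 2 or deprived 1 (edgeR adjusted p = 0.127, 0.137 and 0.159). PSMB3 (beta 3) moved the other way, from 205 and 234 CPM to 174 and 142 CPM, and fell by 0.47 on the log2 scale (SE 0.12, edgeR adjusted p = 0.0191). Its call was lost without control 2 or deprived 2 (edgeR adjusted p = 0.0603 and 0.0634).

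The alpha ring forms the gated outer rings of the core. Of its 7 tested genes, 2 were called higher and 1 lower, 4 were not called, and the median was 0.12. PSMA1 (alpha 6) had 211 and 230 CPM in control and 356 and 328 CPM in deprived libraries, and rose by 0.63 ± 0.08 on the log2 scale (edgeR adjusted p = 0.00141). PSMA3 (alpha 7) had 133 and 142 CPM in control and 110 and 101 CPM in deprived libraries, and fell by 0.38 (SE 0.08, edgeR adjusted p = 0.00846). Neither gene's groups overlapped. PSMA6 (alpha 1) had 138 and 130 CPM in control and 236 and 199 CPM in deprived libraries, a rise of 0.70 ± 0.10 (edgeR adjusted p = 0.00202). That call was not kept on protein-coding transcripts alone, where the log2 fold change was 0.41 (edgeR adjusted p = 0.561). Those transcripts held 19.2% and 52.3% of its counts in control and 37.9% and 20.7% in deprived libraries, and PSMA6 shares exon bases with a readthrough gene (ENSG00000258790) on the same strand. PSMA7, PSMA4, PSMA2 and PSMA5 had log2 fold changes of 0.17, 0.12, 0.06 and -0.01 and were not called; PSMA7, PSMA4 and PSMA2 stood at -0.16, -0.21 and -0.28 with library size only.

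The 19S base holds 6 ATPases (PSMC genes) and 3 non-ATPase subunits (PSMD genes). Of these 9 genes, 4 were called higher, all ATPases, and 3 lower, the non-ATPase subunits, with a median of 0.33; the difference between the kinds was not tested. PSMC4 (Rpt3) had 359 and 385 CPM in control and 636 and 567 CPM in deprived libraries, and rose by 0.69 ± 0.09 on the log2 scale (edgeR adjusted p = 0.0014). PSMC1 (Rpt2) had 50.1 and 52.6 CPM in control and 101 and 89.2 CPM in deprived libraries, and rose by 0.89 ± 0.08 (edgeR adjusted p = 0.00034). In both genes the deprived libraries stood clear of the controls. Of the exon bases of PSMC1, 75.8% overlap NRDE2 on the opposite strand, which had 4084 and 3799 counts in control and 4253 and 5300 counts in deprived libraries, and the part of that overlap in the rise was not tested. PSMC2 (Rpt1) rose by 0.40 ± 0.09 (edgeR adjusted p = 0.0116) and PSMC6 (Rpt4) by 0.33 ± 0.07 (edgeR adjusted p = 0.012); without control 1 neither was called (edgeR adjusted p = 0.0655 and 0.0885). PSMC5 (0.35 ± 0.13, edgeR adjusted p = 0.0684) and PSMC3 (-0.04 ± 0.12, edgeR adjusted p = 0.791) were not called. Protein-coding transcripts held 4.86% and 2.97% of PSMC5 counts in control and 2.42% and 17.6% in deprived libraries. On those alone PSMC5 stood at 1.57 and was not called (edgeR adjusted p = 0.175). DESeq2 called PSMC5 higher (DESeq2 adjusted p = 0.022). With library size only PSMC3 was called lower (-0.38, edgeR adjusted p = 0.0155).

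The 3 base genes that fell encode the large scaffolds and a ubiquitin receptor. PSMD1 (Rpn2), a scaffold, had 174 and 172 CPM in control and 126 and 118 CPM in deprived libraries, and fell by 0.51 on the log2 scale (SE 0.07, edgeR adjusted p = 0.00165). PSMD4 (Rpn10), a receptor for ubiquitin chains, had 39.2 and 42.3 CPM in control and 29.8 and 26.4 CPM in deprived libraries, and fell by 0.54 (SE 0.09, edgeR adjusted p = 0.00402). Neither overlapped between groups. PSMD2 (Rpn1), the other scaffold, had 191 and 182 CPM in control and 158 and 160 CPM in deprived libraries, and fell by 0.23 (SE 0.07, edgeR adjusted p = 0.0323). The PSMD2 call was lost without each of the 4 libraries in turn, with an adjusted p between 0.0651 and 0.156 in edgeR.

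The lid had the highest median of the subunit groups, 0.38. Of its 8 genes, 5 were called higher and none lower. Among protein-coding genes of like expression 44.4% were called higher and 29.7% lower, and the lid was not tested against these shares. None was lower at an unadjusted p under 0.05 in edgeR. On the same libraries DESeq2 and limma-voom also called 0 lower. PSMD14 (Rpn11, ENSG00000115233, GRCh38 chr2:161308038-161411717, plus strand) encodes the metalloprotease that cuts ubiquitin chains off the substrate. Its level was 137 and 154 CPM in control and 333 and 299 CPM in deprived libraries. The mean rose from 146 ± 12.2 CPM (SD, n = 2) to 316 ± 24.4 CPM (SD, n = 2), a log2 fold change of 1.12 ± 0.10 (edgeR adjusted p = 0.000227), or 2.17-fold, the largest rise among the members. The rise lay in the protein-coding PSMD14-201, with 13267 and 14374 counts in control and 32142 and 29610 counts in deprived libraries.

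PSMD12 (Rpn5), a structural lid subunit, had 112 and 102 CPM in control and 193 and 201 CPM in deprived libraries, and rose by 0.88 ± 0.08 on the log2 scale (edgeR adjusted p = 0.000256). PSMD3 (Rpn3) had 242 and 237 CPM in control and 383 and 327 CPM in deprived libraries, and rose by 0.57 ± 0.10 (edgeR adjusted p = 0.00369). PSMD7 (Rpn8), the inactive partner of PSMD14, had 89.8 and 96.9 CPM in control and 126 and 116 CPM in deprived libraries, and rose by 0.37 ± 0.08 (edgeR adjusted p = 0.0101). PSMD6 (Rpn7) rose by 0.39 ± 0.11 (edgeR adjusted p = 0.0256). Its call stood in 6 of 13 alternatives and was lost on protein-coding transcripts alone (0.27, edgeR adjusted p = 0.215). Those transcripts held 45.9% and 51.7% of PSMD6 counts in control and 48.1% and 45.9% in deprived libraries. All these genes had both deprived libraries above both controls. PSMD8, PSMD13 and PSMD11 had log2 fold changes of -0.22, -0.18 and 0.06 and were not called; PSMD11 stood at -0.28 with library size only. With library size only, 2 lid genes were called higher and 3 lower, and without control 1 only 3 were called higher: PSMD7 had an edgeR adjusted p of 0.0652 and PSMD6 of 0.144. The PSMD6 call was also lost without control 2 (0.0632) or deprived 2 (0.0836).

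**Figure D3:**
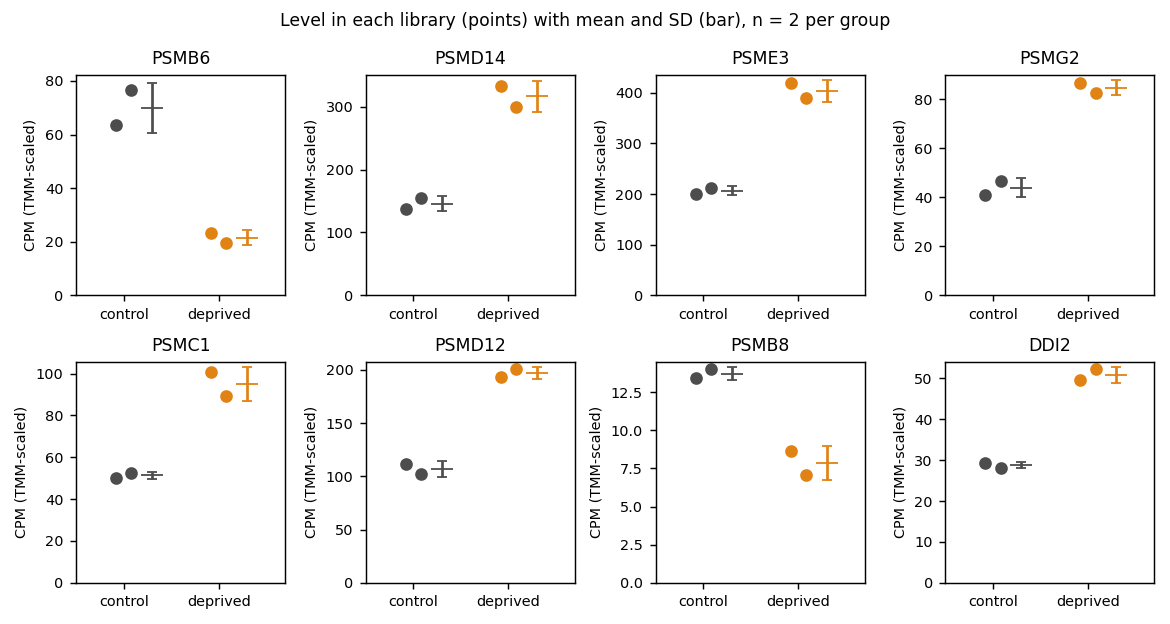
Level in TMM-scaled CPM (y axis) of 8 genes in each library, with the mean and SD of the 2 libraries of a group as a bar. PSMB6 fell from a mean of 70.0 to 21.6 CPM and PSMD14 rose from 146 to 316 CPM. The 8 genes were picked among the called members and their groups do not overlap, as in 76.5% of all genes tested.

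The immunoproteasome replaces the catalytic subunits with PSMB8, PSMB9 and PSMB10 and uses the activator PA28, made of PSME1 and PSME2. These genes are known to be induced by interferon and to change the peptides cut for antigen presentation. Of the 5, none was called higher and 1 was called lower, with a median of -0.02; none was higher at an unadjusted p under 0.05, and DESeq2 and limma-voom called 0 higher and 1 lower. PSMB8 (beta 5i, GRCh38 chr6:32840717-32844703, minus strand) had 13.4 and 14.0 CPM in control and 8.66 and 7.05 CPM in deprived libraries. Both deprived libraries lay below both controls, and PSMB8 fell by 0.80 on the log2 scale (SE 0.14, edgeR adjusted p = 0.00474), or 1.75-fold. PSMB9 (beta 1i) had 4.24 and 5.06 CPM in control and 5.63 and 5.70 CPM in deprived libraries, a log2 fold change of 0.28 ± 0.17 (edgeR adjusted p = 0.216; -0.05 with library size only).

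PSMB10 (beta 2i) had 10.6 and 12.9 CPM in control and 11.6 and 8.43 CPM in deprived libraries, and its groups overlapped. Its log2 fold change was -0.23 ± 0.19 (edgeR adjusted p = 0.364) but 0.30 on protein-coding transcripts alone, and PSMB10 shares 34.8% of its exon bases with a readthrough gene (ENSG00000261884). PSME1 had 53.7 and 59.5 CPM in control and 56.3 and 55.4 CPM in deprived libraries (log2 fold change -0.02 ± 0.08, edgeR adjusted p = 0.867). On protein-coding transcripts alone PSME1 stood at -0.46 and was called lower (edgeR adjusted p = 0.0383). PSME2 had 76.9 and 88.8 CPM in control and 94.1 and 85.8 CPM in deprived libraries (0.12 ± 0.10, edgeR adjusted p = 0.353; -0.22 with library size only). The groups overlapped in both genes. Blood cells are rich in the immunoproteasome, and their markers summed to 27.9 and 14.7 CPM in control and 1.88 and 1.75 CPM in deprived libraries, with 3 of 7 under 1 CPM everywhere. The control sum was mostly CD14 (13.2 and 12.4 CPM) and, in control 1, HBB (11.6 CPM), while PTPRC, carried by all leukocytes, was at most 0.385 CPM. The libraries are labelled as A549 cells, a cultured line, and whether any blood cells were among them was not tested.

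To set each inducible subunit beside the one it replaces, levels were taken per transcript length within a library, as transcripts scaled by length (TPM), which makes the ratio free of library scaling. PSMB9 stood at 6.95% and 7.02% of PSMB6 in the control libraries and at 25.8% and 30.6% in the deprived ones. The TPM show which gene moved: PSMB9 had 11.4 and 12.3 TPM in control and 10.7 and 12.6 TPM in deprived libraries, while PSMB6 had 164 and 175 TPM in control and 41.7 and 41.0 TPM in deprived libraries. PSMB8 stood at 6.05% and 5.83% of PSMB5 in control and at 4.01% and 3.82% in deprived libraries. PSMB10 stood at 7.35% and 8.29% of PSMB7 in control and at 3.91% and 3.28% in deprived libraries. The log2 ratio thus changed by 2.01 for PSMB9 to PSMB6, -0.60 for PSMB8 to PSMB5 and -1.12 for PSMB10 to PSMB7, the last by -0.42 on protein-coding transcripts alone. In each ratio the groups did not overlap, and each gave p = 0.333 in a two-sided exact permutation test, the smallest that 2 against 2 libraries allow.

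**Figure D4:**
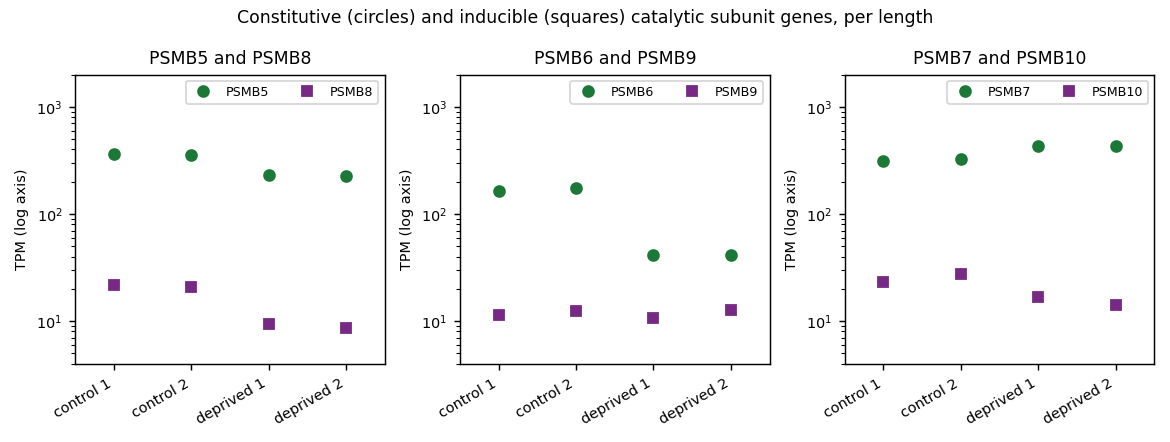
Per-length level in TPM (log y axis) of each constitutive catalytic subunit gene (circles) and the inducible gene that replaces it (squares) in the 4 libraries (x axis). PSMB6 drops from 164 and 175 to 41.7 and 41.0 TPM while PSMB9 stays between 10.7 and 12.6 TPM.

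The promoters of the immunoproteasome genes are shown because these genes are known for a shared interferon-responsive control. RefSeq promoter windows (GRCh38.p14, from 250 bases before to 50 after the start) were found for 47 of the 53 members, 59 windows in all. The core of the interferon-stimulated response element (GAAA, any 2 bases, GAAA), searched on both strands, was found in the windows of PSMB8, PSMB10, PSME1 and PSME2 but not of PSMB9, and in 3 of the 42 other members with a window. It was in 11.9% of the members' windows and 3.57% of the 35116 windows of all genes. The matches, in capitals with 10 bases on each side and written along the strand of the gene, begin 4 bases before the start of PSMB8, 21 before that of PSMB10 and 28 before that of PSME2, and at base 6 from the start of PSME1. PSMB8 has a pair of windows, and its match lies in that of a start inside the GENCODE gene, not in the window at the 5′ end of the gene. The starts used for PSMB10, PSME1 and PSME2 also lie inside their GENCODE genes, that of PSME2 the farthest in.
PSMB8 (chr6:32844032-32844061, minus): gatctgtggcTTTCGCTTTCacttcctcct
PSMB10 (chr16:67936852-67936881, minus): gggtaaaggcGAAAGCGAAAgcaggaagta
PSME1 (chr14:24136189-24136218, plus): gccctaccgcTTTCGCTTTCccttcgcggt
PSME2 (chr14:24146619-24146648, minus): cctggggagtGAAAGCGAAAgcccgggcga
Of the genes printed, PSMB8 fell and the other 3 were not called. The core was also in windows of PSMB4, called higher, and of PSMA4 and PSMG4, not called.

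Of the remaining activators and inhibitor, 2 genes were called higher. PSME3 (PA28 gamma, GRCh38 chr17:42824385-42843758), the nuclear activator, had 201 and 213 CPM in control and 419 and 389 CPM in deprived libraries. The deprived libraries lay well above both controls, and the mean rose from 207 ± 8.41 to 404 ± 21.0 CPM (SD, n = 2), a log2 fold change of 0.96 ± 0.08 (edgeR adjusted p = 0.000194), or 1.95-fold. PSME4 (PA200), an activator known from histone degradation, had 268 and 252 CPM in control and 414 and 413 CPM in deprived libraries, and rose by 0.67 ± 0.07 on the log2 scale (edgeR adjusted p = 0.000652). The inhibitor PSMF1 (PI31) had 97.7 and 98.0 CPM in control and 103 and 95.9 CPM in deprived libraries, with overlapping groups (0.02 ± 0.07, edgeR adjusted p = 0.829; -0.32 with library size only).

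Assembly factors guide subunits into the rings. Of 8 genes, 4 were called higher and 1 lower, with a median of 0.14. PSMG1 and PSMG2 encode the partners of a dimer, PAC1 and PAC2, that starts the alpha ring. PSMG2 (GRCh38 chr18:12658043-12725740) had 41.1 and 46.6 CPM in control and 86.8 and 82.5 CPM in deprived libraries, and rose from a mean of 43.9 ± 3.90 to 84.6 ± 3.04 CPM (SD, n = 2; log2 fold change 0.95 ± 0.09, edgeR adjusted p = 0.000288). PSMG1 had 7.53 and 8.69 CPM in control and 5.48 and 5.81 CPM in deprived libraries, and fell by 0.52 (SE 0.15, edgeR adjusted p = 0.0301). The groups of the 2 partner genes were apart in opposite directions. The PSMG1 call was lost without control 2, deprived 1 or deprived 2 (edgeR adjusted p = 0.156, 0.088 and 0.0576).

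PSMG3 and PSMG4 encode the second dimer, PAC3 and PAC4. PSMG3 had 35.0 and 38.9 CPM in control and 57.6 and 52.1 CPM in deprived libraries, and rose by 0.57 ± 0.09 on the log2 scale (edgeR adjusted p = 0.0029). PSMG4 had a log2 fold change of -0.27 ± 0.13 and was not called (edgeR adjusted p = 0.127). POMP, which places the beta subunits and is consumed by the finished proteasome, had 43.4 and 45.2 CPM in control and 58.3 and 50.6 CPM in deprived libraries, a log2 fold change of 0.30 ± 0.09 (edgeR adjusted p = 0.0355), which was -0.04 with library size only. Its call was lost without control 1, control 2 or deprived 1 (edgeR adjusted p = 0.154, 0.0978 and 0.112). Among chaperones of the base, PSMD10 (gankyrin) had 86.7 and 107 CPM in control and 145 and 134 CPM in deprived libraries, and rose by 0.53 ± 0.12 (edgeR adjusted p = 0.011). PSMD5 and PSMD9 had log2 fold changes of -0.06 and -0.02 and were not called.

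NFE2L1, the transcription factor of subunit genes, and DDI2, the protease that cleaves it into its active form, were both called higher. DDI2 had 29.3 and 28.2 CPM in control and 49.5 and 52.3 CPM in deprived libraries, and rose by 0.82 ± 0.07 on the log2 scale (edgeR adjusted p = 0.000266). NFE2L1 had 129 and 123 CPM in control and 148 and 150 CPM in deprived libraries, a log2 fold change of 0.24 ± 0.07 (edgeR adjusted p = 0.0259) with groups apart. The NFE2L1 call was lost without each of the 4 libraries in turn, with an adjusted p between 0.060 and 0.177 in edgeR, and with library size only the log2 change was -0.09. The deposited values also divide NFE2L1 differently between the deprived libraries: NFE2L1-201 held 8.58% of its counts in deprived 1 and 86.5% in deprived 2, and another coding transcript held 67.0% and 2.26%.

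NFE2L1 and its relatives bind antioxidant response elements, whose core TGACNNNGC was searched on both strands. It was found in 25.4% of the members' windows and in 13.3% of the windows of all genes. By call it was in 5 of 20 members called higher, 3 of 8 called lower and 7 of 17 not called, so the letters did not separate the directions. Matches are shown, in capitals, for 3 genes that rose by over 0.5 on the log2 scale and for PSMB3, which fell.
PSMG2 (chr18:12658689-12658717, plus): cagtttcccgTGACCCCGCggccgctctg
PSMD12 (chr17:67366724-67366752, minus): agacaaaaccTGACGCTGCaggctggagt
PSME4 (chr2:53971009-53971037, minus): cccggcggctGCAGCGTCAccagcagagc
PSMB3 (chr17:38752627-38752655, plus): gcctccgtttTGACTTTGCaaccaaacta
The same core thus stood before genes of both directions, 39 bases before the start of PSMG2, 165 before PSMD12, 34 before PSME4 and 104 before PSMB3. The RefSeq starts of PSMG2, PSMD12 and PSMB3 lie inside their GENCODE genes, that of PSMG2 the farthest in. CCAAT was in 42.4% of the members' windows and 34.6% of all. TGATGNAA, the core of the amino acid response element, was in 1.69% and 3.62%.

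Of the genes that share the symbol prefix without being subunits, both were called lower. PSME3IP1, a nuclear partner of PSME3, had 79.0 and 81.3 CPM in control and 58.0 and 52.1 CPM in deprived libraries, and fell by 0.54 on the log2 scale (SE 0.08, edgeR adjusted p = 0.00209) while PSME3 rose. PSMC3IP, a meiotic recombination factor, had 1.91 and 1.74 CPM in control and 1.19 and 0.940 CPM in deprived libraries (log2 fold change -0.78 ± 0.25, edgeR adjusted p = 0.046). Its level is low and its exons overlap those of the far more abundant MLX on the opposite strand. The PSMC3IP call was lost without control 1, control 2 or deprived 2 (edgeR adjusted p = 0.179, 0.119 and 0.126).

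Genes that act with the proteasome under other symbols were read from 4 lists. Among all protein-coding genes tested 34.3% were called higher and 29.8% lower, 64.1% in all, and the counts of the lists were not tested against these shares. Of 16 further subunits and partners, 8 were called higher and 1 lower, with a median of 0.28. AKIRIN2, which carries proteasomes into the nucleus, had 25.5 and 26.3 CPM in control and 71.4 and 71.1 CPM in deprived libraries (log2 fold change 1.46, edgeR adjusted p = 2.96e-05), and PITHD1, a proteasome-binding protein, rose by 1.37 (edgeR adjusted p = 5.5e-05). UBQLN4, a shuttle for ubiquitylated proteins, fell by 0.89 (edgeR adjusted p = 0.000586). Of 15 genes of NFE2L1 processing, turnover and partnership, 8 were called higher and 3 lower, with a median of 0.33. MAFF, a small MAF partner of NFE2L1, had 2.32 and 2.73 CPM in control and 238 and 208 CPM in deprived libraries (log2 fold change 6.47, edgeR adjusted p = 8.64e-06). MAFK, another partner, rose by 2.66 (edgeR adjusted p = 1.33e-05) and FBXW7, a ubiquitin ligase receptor for NFE2L1, by 1.44 (edgeR adjusted p = 3.37e-05). Next by p in that list, NFE2L2 and MAFG rose by 1.54 and 0.81 (edgeR adjusted p = 4.59e-05 and 0.000315). VCP, the ATPase that pulls NFE2L1 from the endoplasmic reticulum, fell by 0.82 (edgeR adjusted p = 0.000345).

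Of 6 ubiquitin and E1 enzyme genes, 3 were called higher and 2 lower, with a median of 0.16. RPS27A, a fusion of ubiquitin and a ribosomal protein, had 213 and 254 CPM in control and 498 and 390 CPM in deprived libraries (log2 fold change 0.93, edgeR adjusted p = 0.00282). UBA1, the main E1 enzyme, fell by 0.62 (edgeR adjusted p = 0.000776). Of 14 genes of antigen processing and the interferon response, 6 were called higher and 6 lower, with a median of -0.20. TAP1, the peptide transporter encoded beside PSMB9, rose by 1.01 (edgeR adjusted p = 0.000118) and HLA-B by 1.01 (edgeR adjusted p = 0.00116), whereas NLRC5, an activator of class I genes, fell by 1.26 (edgeR adjusted p = 0.000553).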

How the data were processed

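Per the submitters' processing notes, the tools were featureCounts 1.5.0-p3, HISAT2 2.0.5 and DESeq2 1.20.0, and the build was hg38 (GRCh38). The step that divided reads among transcripts, the annotation and any use of strand were, for these files, not given in the sources used here. As deposited, the authors give 1 value per transcript and library, whole numbers treated as estimated counts because they divide reads among overlapping transcripts. They were summed to genes with GENCODE 29, which matched 205306 of 229420 transcripts (98.0% to 98.2% of counts). Genes were filtered with filterByExpr, scaled with TMM (factors 1.15, 1.10, 0.862 and 0.919) and compared by the two-sided quasi-likelihood test of edgeR 4.0.16 in R 4.3.3, with Benjamini-Hochberg adjustment over all of them. CPM are TMM-scaled; TPM use each transcript's own length and no scaling between libraries. The common biological coefficient of variation was 0.210. Replicates differed beyond sampling noise (chi-square per degree of freedom 31.0 and 43.6), so none was counted as a copy.

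The members and lists were chosen with earlier results of these data known. In each role the text names the 4 genes with the smallest p and a set list of catalytic, activator and regulator genes, and in each other list the 3 with the smallest p. Outside that rule, NFE2L2, MAFG and VCP, the next by p in the NFE2L1 list, are named as well. Other members are named so that each is accounted for. The values of 1 gene of those lists are not reported here. Alternatives were RLE, upper-quartile and library-size scaling, no filter, a filter of 50 counts in 2 libraries, DESeq2 1.42.0, limma-voom 3.58.1, a replicate block, protein-coding transcripts only and leaving out each library. Processed pseudogenes of 18 members (45 pseudogenes) held at most 1.89% of the counts of their gene. The scripts were tested on simulated data.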

Additional observations from a re-analysis of the deposited data

How the results depend on the processing

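Across 13 alternatives, 12 of the 23 members called higher and 6 of the 10 called lower kept their call in each. With library size only, 13 members were called higher and 23 lower; by group, 6 core genes were lower, 2 base genes higher, 2 lid genes higher and 3 lower, 3 immunoproteasome genes lower, and 2 assembly factors higher and 4 lower. Upper-quartile scaling gave 2 lid genes and 2 assembly factors lower. With no filter 6 members and 0 assembly factors were lower, the 50-count filter gave 1 lid gene lower, and protein-coding transcripts alone gave 2 immunoproteasome genes and 0 assembly factors lower. Leaving out 1 library gave 16 to 22 members higher and 6 to 10 lower (6 without control replicate 2 and 6 without deprived replicate 2), 2 to 5 base genes higher (2 without control replicate 1), 3 to 5 lid genes higher (3 without control replicate 1), 0 to 1 lid genes lower and 0 to 1 assembly factors lower. The lone library left in a group is then assumed to vary like the other group. The cause of these moves was not tested.

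The log2 fold change turned with library size only for NFE2L1 (-0.092), POMP (-0.040), PSMA7 (-0.16), PSMB9 (-0.050), PSME2 (-0.22), PSMF1 (-0.32), PSMC6 (-0.0084), PSMB2 (-0.057), PSMA4 (-0.21), PSMA2 (-0.28) and PSMD11 (-0.28). On protein-coding transcripts alone it turned for PSMB10 (0.30), PSME2 (-0.19) and PSMF1 (-0.060). PSMF1 was also -0.087 with upper-quartile scaling and -0.029 with the 50-count filter, and ranged from -0.023 to 0.085 when 1 library was left out. PSME1 was 0.012 with RLE scaling and 0.012 with DESeq2, and ranged from -0.10 to 0.044 when 1 library was left out. On protein-coding transcripts alone PSME1 kept its sign but was called lower (-0.46, edgeR adjusted p = 0.0383). PSMC3, PSMD11, PSMA2, PSMA5, PSMD5 and PSMD9, not called, also changed sign in other alternatives.

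Deviations of same-numbered libraries from their group means had a correlation of -0.0235 across genes. With 2 libraries per group this is a single comparison. It cannot show whether the cultures were paired, which is not stated. A fit with the replicate number as a block called 20 members higher and 7 lower, with 0 assembly factors lower.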
